A study of Mus musculus with 9 samples.

Results

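The transcription factors that set up and keep the hepatocyte program were described here in orthotopic Hepa1-6 tumors of mice given PBS or anti-PD-1 antibody. The 9 genes were Hnf4a, Foxa1, Foxa2, Foxa3, Cebpa, Nr1h4, Nr1i2, Nr1i3 and Onecut1, of 52176 gene symbols named in the tables, and they were taken by name, not by their values. Hepa1-6 is a mouse hepatoma line, and pieces of tumors first grown under the skin were implanted into the left liver lobe of male C57BL/6 mice aged 6 to 8 weeks. PBS or the antibody, which blocks the T cell checkpoint receptor PD-1, was injected into the peritoneum 5 times, every 4 days, from day 10 to day 26, and tumors were taken on day 27 with the surrounding tissue removed. RNA of whole tumors was sequenced in 3 groups of 3, with 1 mouse for each tumor: PBS-treated, anti-PD-1 antibody-nonresponsive (the 3 largest treated tumors) and anti-PD-1 antibody-responsive (the 3 smallest). Treated tumors of intermediate size were excluded by the authors. All tumors come from 1 cell line grown in a host liver, so a whole tumor holds Hepa1-6 cells together with the cells of the host, and mouse reads from the tumor cells and from the host liver look alike.

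In the liver these factors work as a network in which each binds the regulatory regions of hepatocyte genes and of several of the other factors. The FOXA proteins open closed chromatin early in liver development, HNF4A and CEBPA hold genes of plasma proteins, lipid transport and gluconeogenesis active in the mature hepatocyte, and ONECUT1 acts in the choice between hepatocyte and bile duct cell. NR1H4 (FXR), NR1I2 (PXR) and NR1I3 (CAR) are nuclear receptors that sense bile acids or foreign compounds and adjust bile acid synthesis, transport and drug metabolism. Hepatocellular carcinomas often keep part of this network and lose another part.

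Values are FPKM, the number of fragments scaled by transcript length and by the mapped fragments of the tumor, so that levels of different genes can be compared. Fold changes and their tests are on the log2(FPKM + 1) scale, which understates changes of genes near or under an FPKM of 1. Fragment numbers are not given in the files, so the precision of a low value was read from the 95% interval that Cufflinks gave it. Entries that name a gene and reach an FPKM of 1 numbered 12533 to 13328 in a tumor. Markers of other tissues stood out in 3 tumors. In nonresponsive tumor 2 the summed FPKM of 10 pancreatic acinar genes was 1216, against at most 0.380 in the 8 other tumors, where 5 of the 10 genes were at 0 throughout. Prss2, a trypsinogen, was at 255 in that tumor, and Ins2, an insulin gene, at 10.5. The skeletal muscle genes Mylpf and Ckm were at 89.0 and 54.8 in nonresponsive tumor 3 and at 42.7 and 12.5 in PBS tumor 1, and each was at most 16.1 in the other 7 tumors. PBS tumor 1 also had the lowest level of 13 hepatocyte markers, with a mean of 4.56 on the log2 scale against 7.47 to 9.98 elsewhere.

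The promoters of 3 of the factors held a short motif of a liver factor, and they are shown because these 3 factors themselves bind and regulate liver promoters. The motifs were chosen with the promoters in view, so the shares of all windows given below cannot show how unusual a match is. They come from RefSeq on build GRCm38.p6 and cover the 250 bases before an annotated start. The motifs were TGTTTAC for FOXA, TTGCGC for CEBP, ATTGATTT for ONECUT and CAAAGTCCA for HNF4. They were searched on both strands of 12 windows for the 9 genes, and 3 windows held 1 motif each, all of which are shown. Capitals mark the motif on the strand of the gene, 5′ to 3′. The windows are chr12:57546112-57546361 on the - strand for Foxa1, chr2:148046970-148047219 on the - strand before the first start of Foxa2, and chr7:35119043-35119292 on the + strand for Cebpa.
Foxa1: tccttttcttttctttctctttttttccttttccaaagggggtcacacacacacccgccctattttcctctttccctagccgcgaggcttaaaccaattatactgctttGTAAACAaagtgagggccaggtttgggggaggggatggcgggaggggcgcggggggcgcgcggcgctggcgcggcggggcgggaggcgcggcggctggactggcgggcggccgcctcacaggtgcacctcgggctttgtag
Foxa2: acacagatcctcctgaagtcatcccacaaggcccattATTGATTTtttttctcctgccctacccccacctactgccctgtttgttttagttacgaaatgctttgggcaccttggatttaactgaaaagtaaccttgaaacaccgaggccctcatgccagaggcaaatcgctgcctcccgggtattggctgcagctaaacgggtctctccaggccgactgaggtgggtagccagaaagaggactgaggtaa
Cebpa: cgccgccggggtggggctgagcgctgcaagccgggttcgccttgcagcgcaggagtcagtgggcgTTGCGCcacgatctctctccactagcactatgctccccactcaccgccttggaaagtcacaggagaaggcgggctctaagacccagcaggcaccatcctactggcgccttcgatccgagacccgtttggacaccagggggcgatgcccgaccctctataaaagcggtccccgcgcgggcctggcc
The Foxa1 window held the FOXA motif from -141 to -135 before the start, read on the opposite strand, which 3.17% of 32851 promoter windows hold. The Foxa2 window held the ONECUT motif from -213 to -206 (1.14% of windows), and the Cebpa window held the CEBP motif from -185 to -180 (5.34% of windows). The HNF4 motif, held by 0.384% of windows, had no match in the 12. A match is a stretch of letters and not a measured binding site.

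Over the 9 tumors the mean levels ran from Cebpa at 56.8 FPKM through Foxa2 at 29.1, Hnf4a at 20.8, Nr1h4 at 11.0, Foxa3 at 6.75, Nr1i2 at 2.93 and Onecut1 at 2.50 to Foxa1 at 1.87. Only 2 steps in this order exceeded the spread between tumors. Hnf4a was above Nr1h4 in 9 of 9 tumors, by 1.03 ± 0.75 on the log2(FPKM + 1) scale (SD), and Foxa3 was above Nr1i2 in 9 of 9, by 1.12 ± 0.79. Cebpa was above Foxa2 in 7 of 9 tumors, and the difference of 1.21 had an SD of 2.14. In PBS-treated tumors Foxa2 had the highest mean (43.9), but it was above Cebpa in only 1 of 3 tumors (0.49, SD 1.09). In responsive tumors its mean came after those of Cebpa (82.0) and Hnf4a (34.0). Hnf4a was above Foxa2 in 2 of these 3 tumors (1.09, SD 1.86), so neither rank of Foxa2 exceeded the spread between tumors. Nr1i3 could not be placed in the order.

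**Figure D1:**
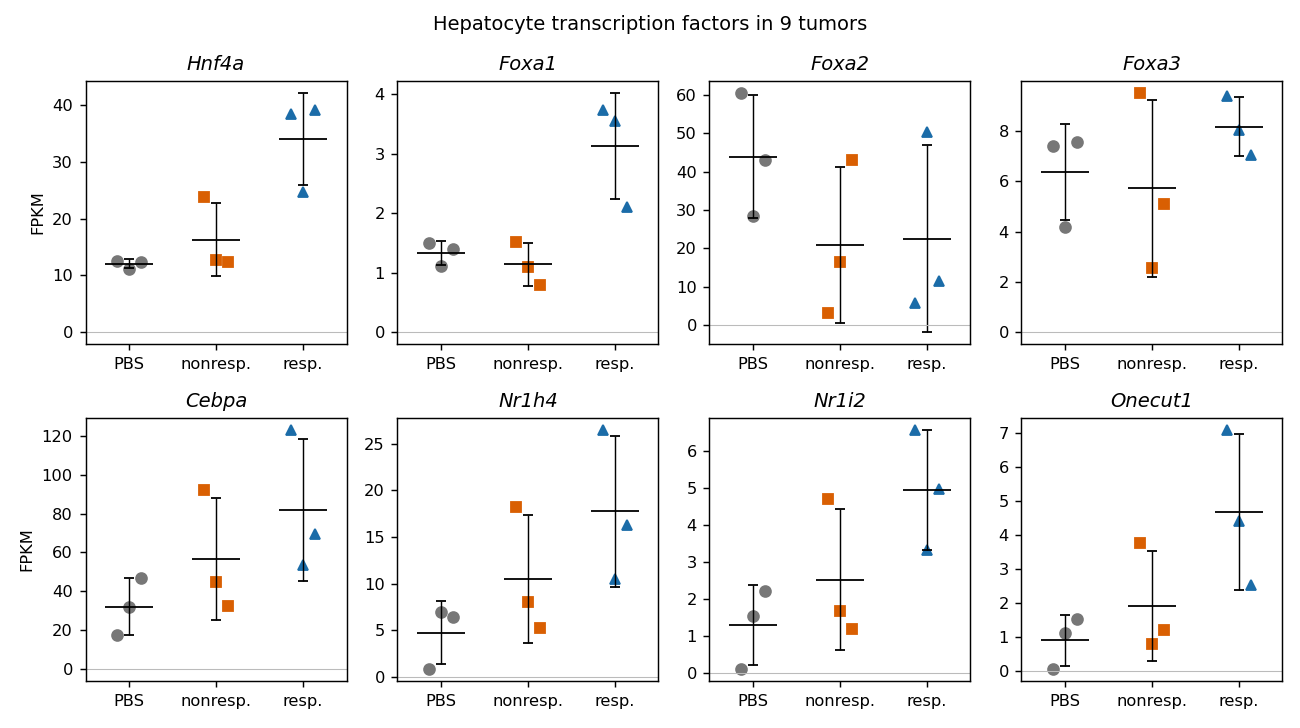
FPKM of 8 transcription factors in each of the 9 tumors (points), by group, with the mean (line) and SD (bar) of the 3 tumors of a group; the vertical scale differs between panels. Hnf4a and Foxa1 of all 3 responsive tumors lie above those of the 6 other tumors, and Foxa2 spreads from 3.04 to 60.5 with no such separation.

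Hnf4a encodes the nuclear receptor that is required for most hepatocyte-specific expression. Its FPKM was 12.6, 11.2 and 12.4 in the PBS-treated tumors, 23.7, 12.8 and 12.4 in the nonresponsive tumors, and 38.3, 24.7 and 39.0 in the responsive tumors. All 3 responsive tumors were above all others, although responsive tumor 2 (24.7) and nonresponsive tumor 1 (23.7) were close. Compared with PBS, Hnf4a was 1.40 higher in responsive tumors on the log2 scale (SE 0.22, 95% interval 0.85 to 1.94, limma unadjusted p = 0.000900, adjusted p = 0.219, exact permutation p = 0.10), a 2.63-fold difference. Compared with nonresponsive tumors it was 1.05 higher (SE 0.33, interval 0.24 to 1.86, limma unadjusted p = 0.0197, adjusted p = 0.886, exact permutation p = 0.10). The second difference stayed between 0.90 and 1.34 whichever tumor was left out, but its unadjusted limma p was over 0.05 without nonresponsive tumor 2, nonresponsive tumor 3, responsive tumor 1 or responsive tumor 3. Nonresponsive and PBS-treated tumors overlapped (0.35, interval -0.35 to 1.05, and 0.058 to 0.50 with 1 tumor left out).

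The FOXA genes encode 3 related pioneer factors with nearly the same DNA-binding domain, and they differed in both level and pattern. Foxa1 was at 1.50, 1.11 and 1.39 FPKM in PBS-treated, 1.52, 1.10 and 0.797 in nonresponsive tumors, and 3.73, 3.55 and 2.11 in responsive tumors. Every responsive tumor was above every other tumor, though the level stayed low. The widest Cufflinks interval, 0 to 2.62 for PBS tumor 2, included the value of responsive tumor 3. The intervals of nonresponsive tumor 1 (0.762 to 2.28) and PBS tumor 1 (0.708 to 2.30) included it too. Foxa1 was 0.94 higher in responsive than in nonresponsive tumors (SE 0.26, interval 0.29 to 1.59, limma unadjusted p = 0.0124, adjusted p = 0.886, exact permutation p = 0.10) and 0.80 higher than in PBS-treated tumors (SE 0.23, interval 0.24 to 1.37, limma unadjusted p = 0.0137, adjusted p = 0.281, exact permutation p = 0.10). The first difference kept an unadjusted p under 0.05 when any 1 tumor was left out, with log2 values of 0.82 to 1.13.

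Foxa2, which acts with Foxa1 in the onset of liver development and in fasting metabolism, followed another course. Its FPKM was 60.5, 28.3 and 43.0 in PBS-treated, 3.04, 16.5 and 43.1 in nonresponsive tumors, and 5.59, 50.4 and 11.4 in responsive tumors. Both antibody-treated groups held a tumor at the level of the PBS-treated tumors and another far below the lowest of them, so the groups overlapped in all 3 comparisons. The range was 14.2-fold among nonresponsive and 9.01-fold among responsive tumors against 2.14-fold among PBS-treated ones. The mean difference was 0.14 between responsive and nonresponsive tumors (interval -2.58 to 2.86), -1.41 between responsive and PBS-treated tumors (interval -3.37 to 0.55, exact permutation p = 0.30) and -1.55 between nonresponsive and PBS-treated tumors (interval -3.74 to 0.63, exact permutation p = 0.30). These values turned on single tumors. Without responsive tumor 2 the difference from PBS was -2.25, and without nonresponsive tumor 3 the difference of nonresponsive tumors from PBS was -2.35, both with an unadjusted limma p under 0.05. In these fits 28.6% and 13.8% of all genes had such a p in either direction, and 8.79% and 5.26% were higher. With all tumors 17.2% and 3.22% of all genes had such a p in either direction. With 1 tumor left out the differences from PBS ran from -2.25 to -0.77 in responsive and from -2.35 to -0.63 in nonresponsive tumors. The sign between responsive and nonresponsive tumors turned to -0.79 without nonresponsive tumor 1 and to -0.70 without responsive tumor 2.

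Foxa3, the FOXA factor that persists in adult liver and supports glucose output, was at 7.40, 4.17 and 7.56 FPKM in PBS-treated, 9.51, 2.54 and 5.09 in nonresponsive tumors, and 9.39, 8.05 and 7.05 in responsive tumors. The highest and the lowest value were both in nonresponsive tumors, and all 3 groups overlapped. The differences were 0.58 between responsive and nonresponsive tumors (interval -0.44 to 1.60), 0.34 between responsive and PBS-treated tumors (interval -0.29 to 0.98) and -0.24 between nonresponsive and PBS-treated tumors (interval -1.36 to 0.88). The first was 0.97, with an unadjusted limma p under 0.05, when nonresponsive tumor 1 was left out, and 0.19 when nonresponsive tumor 2 was. The second ran from 0.11 to 0.47 and the third from -0.63 to 0.15 with 1 tumor left out. Of the summed FPKM of the 3 FOXA genes, Foxa2 made up 82.8% to 87.2% in PBS-treated tumors, whereas it made up 21.6%, 82.0% and 88.0% in nonresponsive tumors and 29.9%, 81.3% and 55.4% in responsive tumors. In the first nonresponsive and the first responsive tumor Foxa3 had the largest share, at 67.6% and 50.2%.

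Cebpa encodes a leucine zipper factor that halts hepatocyte division and drives gluconeogenic and urea cycle genes. Its FPKM was 17.3, 31.9 and 46.7 in PBS-treated, 92.1, 45.0 and 32.5 in nonresponsive tumors, and 123, 53.4 and 69.4 in responsive tumors. All responsive tumors were above all PBS-treated tumors, and the nonresponsive tumors reached into both groups. Cebpa was 1.35 higher in responsive than in PBS-treated tumors (SE 0.47, interval 0.19 to 2.51, limma unadjusted p = 0.0296, adjusted p = 0.281, exact permutation p = 0.10). The difference was 0.98, 1.40, 1.01 and 1.42, each with an unadjusted limma p over 0.05, when PBS tumor 1, PBS tumor 2, responsive tumor 1 or responsive tumor 3 was left out. The difference was 0.58 between responsive and nonresponsive tumors (interval -0.62 to 1.78) and 0.77 between nonresponsive and PBS-treated tumors (interval -0.50 to 2.04). The former was 0.24 with responsive tumor 1 left out and 0.99 with nonresponsive tumor 1 left out, its extremes over the single tumors. The latter was lowest (0.36) when nonresponsive tumor 1 was dropped and highest (1.10) when nonresponsive tumor 3 was.

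Nr1h4, the bile acid receptor FXR, was at 0.856, 6.95 and 6.38 FPKM in PBS-treated, 18.2, 8.05 and 5.22 in nonresponsive tumors, and 26.5, 10.5 and 16.3 in responsive tumors. PBS tumor 1 stood far below all others, and every responsive tumor was above every PBS-treated tumor. The difference between responsive and PBS-treated tumors was 1.88 (SE 0.66, interval 0.24 to 3.52, limma unadjusted p = 0.0310, adjusted p = 0.281, exact permutation p = 0.10). Without PBS tumor 1 it was 1.20 and kept an unadjusted p under 0.05, whereas without responsive tumor 1 or 3 it was 1.56 or 1.90 with an unadjusted limma p over 0.05. Nr1h4 was 0.78 higher in responsive than in nonresponsive tumors (interval -0.49 to 2.05), and this was 1.23, with an unadjusted limma p under 0.05, without nonresponsive tumor 1, but 0.42 without nonresponsive tumor 3 and 0.46 without responsive tumor 1. Nonresponsive tumors were 1.10 above PBS-treated tumors with an interval of -0.65 to 2.86, and 0.42 above them without PBS tumor 1.

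Nr1i2, the xenobiotic receptor PXR, was at 0.109, 1.55 and 2.22 FPKM in PBS-treated, 4.70, 1.69 and 1.18 in nonresponsive tumors, and 6.57, 3.33 and 4.97 in responsive tumors. Responsive and PBS-treated tumors did not overlap, and nonresponsive tumor 1 lay among the responsive ones. The difference from PBS was 1.47 (SE 0.46, interval 0.33 to 2.62, limma unadjusted p = 0.0201, adjusted p = 0.281, exact permutation p = 0.10). It was 2.39 with a pseudocount of 0.1, 1.28 without responsive tumor 1 and 1.45 without responsive tumor 3, each with an unadjusted limma p over 0.05. Responsive tumors were 0.85 above nonresponsive ones (interval -0.21 to 1.91), and 1.26 above them, with an unadjusted limma p under 0.05, without nonresponsive tumor 1, but 0.57 above them without nonresponsive tumor 3. Nonresponsive tumors were 0.62 above PBS-treated tumors, with an interval of -0.74 to 1.98, and 0.17 above them without PBS tumor 1.

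Nr1i3, the constitutive androstane receptor CAR, had no usable value in the tables of the single tumors. It was listed at 0 in 8 tumors, and in responsive tumor 3 it shared an entry of 2835 FPKM with its neighbor Apoa2, an abundant apolipoprotein gene whose own entry ran from 89.2 to 5326 in the other tumors. It was therefore left out of every test. The group values of the authors' deposited table, which pools the 3 tumors of a group, put Nr1i3 at 1.55 FPKM in PBS-treated, 3.51 in nonresponsive and 9.25 in responsive tumors, with no spread between tumors to set them against.

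Onecut1 (HNF6) is needed for bile duct formation and acts on Foxa2 and Hnf4a during liver development. Its entry also named Gm16551 and Gm20649 in all 9 tumors, so the values belong to the 3 genes together. They were 0.0537, 1.11 and 1.52 FPKM in PBS-treated, 3.78, 0.786 and 1.20 in nonresponsive tumors, and 7.10, 4.40 and 2.54 in responsive tumors. Responsive tumors were above all PBS-treated tumors, and nonresponsive tumor 1 lay between responsive tumors. The value of PBS tumor 1 had a Cufflinks interval of 0 to 0.409. The difference between responsive and PBS-treated tumors was 1.60 (SE 0.46, interval 0.46 to 2.73, limma unadjusted p = 0.0141, adjusted p = 0.281, exact permutation p = 0.10). With a pseudocount of 0.1 in place of 1 it was 2.72, still with an unadjusted limma p under 0.05. Between responsive and nonresponsive tumors it was 1.01 (interval -0.18 to 2.21), or 1.44, with an unadjusted limma p under 0.05, without nonresponsive tumor 1, and 0.72 without responsive tumor 1. Between nonresponsive and PBS-treated tumors it was 0.58 (interval -0.68 to 1.85), or 1.30 with the smaller pseudocount and 0.16 without nonresponsive tumor 1.

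The comparison of responsive with PBS-treated tumors addresses how treated tumors that stayed small differ from untreated ones. Here 6 of the 8 factors tested were higher in responsive tumors at an unadjusted p under 0.05 (Hnf4a, Foxa1, Cebpa, Nr1h4, Nr1i2 and Onecut1), and 0 were lower. The same 6 had no overlap between the groups. Among all 13839 genes tested, 8.48% were higher and 8.77% lower at that threshold, and 11.6% did not overlap upward and 16.4% downward. The median difference of the 8 factors was 1.37 on the log2 scale against -0.11 over all genes. None of the 8 passed an adjusted p of 0.05 in limma (lowest 0.219), a threshold that 0.152% of all genes passed upward and 0.0795% downward. Without PBS tumor 1, which had the lowest hepatocyte markers and raised muscle genes, 5 of the 8 were higher, and so were 6.37% of all genes. Without responsive tumor 1 or without responsive tumor 3 the number was 3, and the share of all genes fell to 4.09% and 4.76%.

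Responsive and nonresponsive tumors received the same antibody and were chosen by their size at the end. Their comparison therefore sets small treated tumors against large ones, and response and tumor size cannot be told apart in it. All 8 factors had a positive difference, from 0.14 for Foxa2 to 1.05 for Hnf4a, with a median of 0.82 against -0.07 over all genes. Only Hnf4a and Foxa1, 2 of 8, had an unadjusted p under 0.05 and groups that did not overlap, and 0 were lower. Of 13830 genes, 4.06% were higher and 1.44% lower at that threshold and 5.78% did not overlap upward and 4.75% downward. None of the 8 passed an adjusted p of 0.05 in limma (lowest 0.886), against 0.0868% of all genes upward and 0.0289% downward. The number was 6 of 8 without nonresponsive tumor 1, and 1 of 8 without nonresponsive tumor 2, nonresponsive tumor 3, responsive tumor 1 or responsive tumor 3. The share of all genes that were higher moved with it, to 7.17% without nonresponsive tumor 1 and to 1.53% to 2.09% without any of the other 4. Nonresponsive tumor 2 held the pancreatic markers and nonresponsive tumor 3 the muscle markers, and their part in the differences was not tested.

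Nonresponsive tumors were set against PBS-treated tumors to see how treated tumors that grew large differ from untreated ones. None of the 8 factors had an unadjusted or adjusted p under 0.05 in limma, where 1.51% of 13791 genes were higher and 1.71% lower at an unadjusted p under 0.05, and 0.029% and 0.0508% at an adjusted one. None had groups without overlap, against 3.23% of genes upward and 4.97% downward. Cebpa, Nr1h4, Nr1i2, Hnf4a and Onecut1 had positive differences of 0.35 to 1.10 and the 3 FOXA genes negative ones of -0.14 to -1.55, all with intervals that included 0. The 3 comparisons share tumors and are not independent of each other. With 3 tumors against 3, an exact two-sided permutation test cannot give a p under 0.1, which it gave for every factor whose groups did not overlap.

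**Figure D2:**
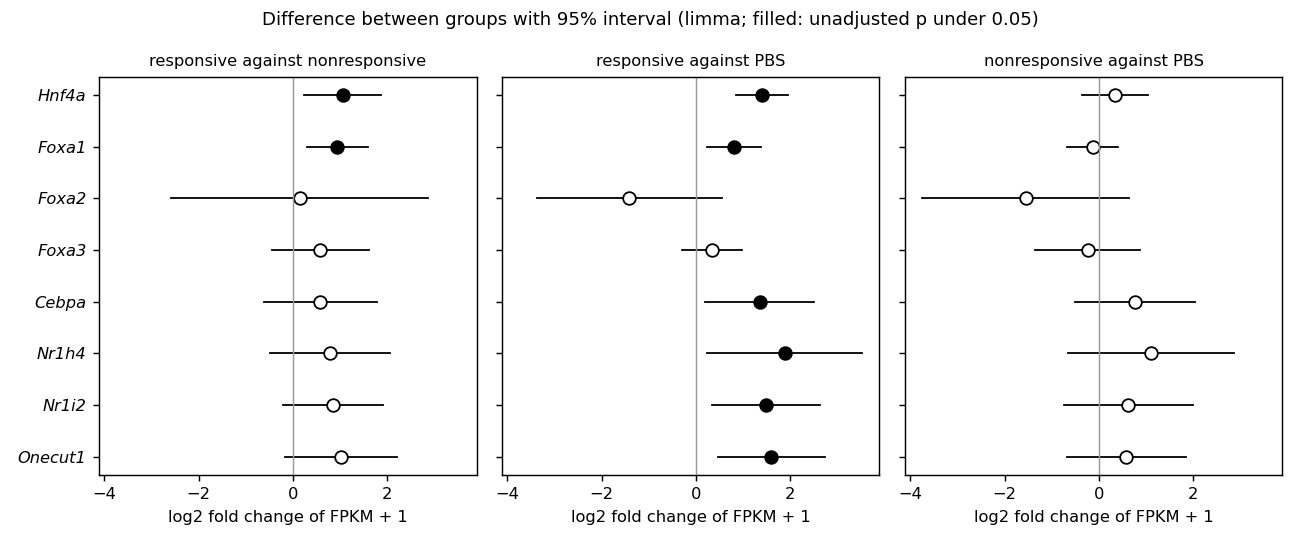
Difference between groups on the log2(FPKM + 1) scale for each of 8 factors (horizontal axis), with the 95% interval of limma (line), in the 3 comparisons; filled points have an unadjusted p under 0.05. In responsive against PBS-treated tumors 6 points are filled, in responsive against nonresponsive tumors 2 (Hnf4a and Foxa1), and in nonresponsive against PBS-treated tumors 0; the Foxa2 interval is the widest in all 3 panels.

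Across the 9 tumors the factors followed hepatocyte markers to different degrees. The markers were 13 genes of plasma proteins and hepatocyte enzymes, among them Apoa1, Apoh, Ahsg, Fga, Fgb, Fgg, Serpina3k (in 1 entry with Serpina3m and Serpina3n), Gc, Hpx, Ambp and Hpd. Of them 11 were higher in responsive than in PBS-treated tumors at an unadjusted limma p under 0.05, 5 (Apoh, Gc and Hpd among them) exceeded the nonresponsive tumors at that threshold, and 0 differed between nonresponsive and PBS-treated tumors. The median differences were 2.81, 1.31 and 1.54. Their summed FPKM ran from 461 to 5932 in PBS-treated tumors, from 4103 to 11895 in nonresponsive ones and from 8828 to 18890 in responsive ones. Fga and Fgg had the same value, 1769 FPKM, in responsive tumor 3, and both were counted in its sum and its marker mean. In whole tumors, more hepatocyte or hepatocyte-like cells and more RNA of these genes per cell cannot be told apart.

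Nr1h4 had a Pearson's r of 0.977 with the marker mean (Spearman's rho 0.90, exact permutation p = 6.06e-05 for r, 0.000162 after Benjamini-Hochberg adjustment over 8 relations). For Nr1i2 r was 0.970 (rho 0.983, adjusted exact permutation p = 8.82e-05), for Cebpa 0.935 (rho 0.983, adjusted exact permutation p = 9.92e-05) and for Onecut1 0.893 (rho 0.883, adjusted exact permutation p = 0.00131). Hnf4a was less close, with r of 0.745 (rho 0.833, adjusted exact permutation p = 0.0188), and for Foxa1 the measures differed, with r of 0.524 (adjusted exact permutation p = 0.172) and rho of 0.733 (adjusted exact permutation p = 0.0415). Foxa3 had r of 0.273 and rho of 0.60 (adjusted exact permutation p = 0.456 and 0.0968). Foxa2 ran the other way, with r of -0.669 (adjusted exact permutation p = 0.0543) and rho of -0.70 (adjusted exact permutation p = 0.0494). Without PBS tumor 1 and responsive tumor 1, the tumors farthest from the median of the markers, r was 0.918 for Nr1h4, 0.973 for Nr1i2, 0.908 for Cebpa, 0.814 for Onecut1, 0.964 for Hnf4a, 0.724 for Foxa1, 0.652 for Foxa3 and -0.547 for Foxa2 (exact permutation p = 0.20). The groups differ in the marker mean, so the relations were also computed on the deviations of each tumor from its group mean, permuted within groups. There r was 0.952 for Nr1h4, 0.947 for Nr1i2, 0.868 for Cebpa and -0.585 for Foxa2 (adjusted exact permutation p = 0.0247, 0.0185, 0.0185 and 0.0278, where an unadjusted p can be no smaller than 0.00463). For Onecut1 it was 0.779 (adjusted exact permutation p = 0.0667), and for Hnf4a, Foxa1 and Foxa3 it was 0.373, 0.057 and 0.133 (adjusted exact permutation p = 0.216, 0.847 and 0.810).

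**Figure D3:**
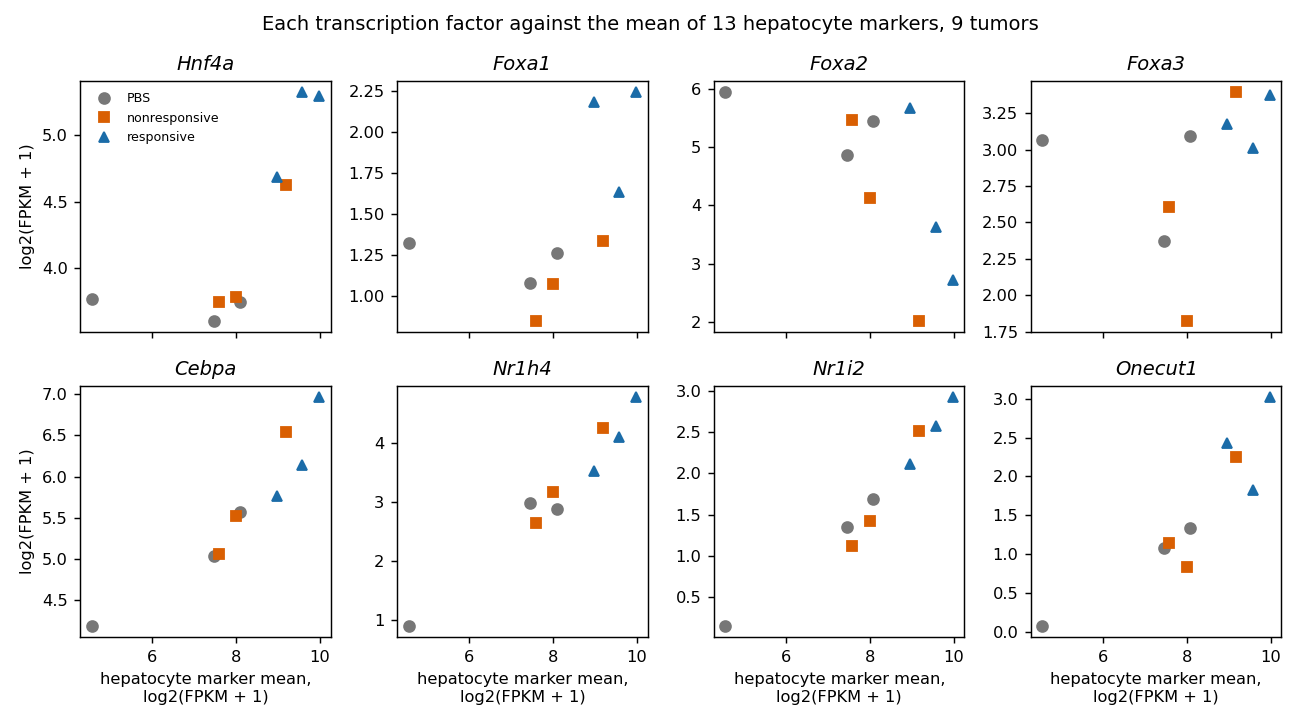
log2(FPKM + 1) of each factor (vertical axis) against the mean log2(FPKM + 1) of 13 hepatocyte markers (horizontal axis) in 9 tumors, with 1 point for each tumor and a symbol for each group. Cebpa, Nr1h4, Nr1i2 and Onecut1 lie near a rising line (r of 0.893 to 0.977), and Foxa2 falls with the markers (r of -0.669).

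Among the factors themselves, Cebpa, Nr1h4, Nr1i2 and Onecut1 formed the closest set, with r between 0.897 and 0.977 over the 9 tumors in their 6 pairs. Hnf4a had r of 0.762 to 0.840 with these 4 factors and 0.796 with Foxa1. Foxa2 had a negative r with all 7 other factors, from -0.249 with Foxa1 to -0.827 with Cebpa. The pairs share the same tumors and the same scaling, and these values are a description.

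**Figure D4:**
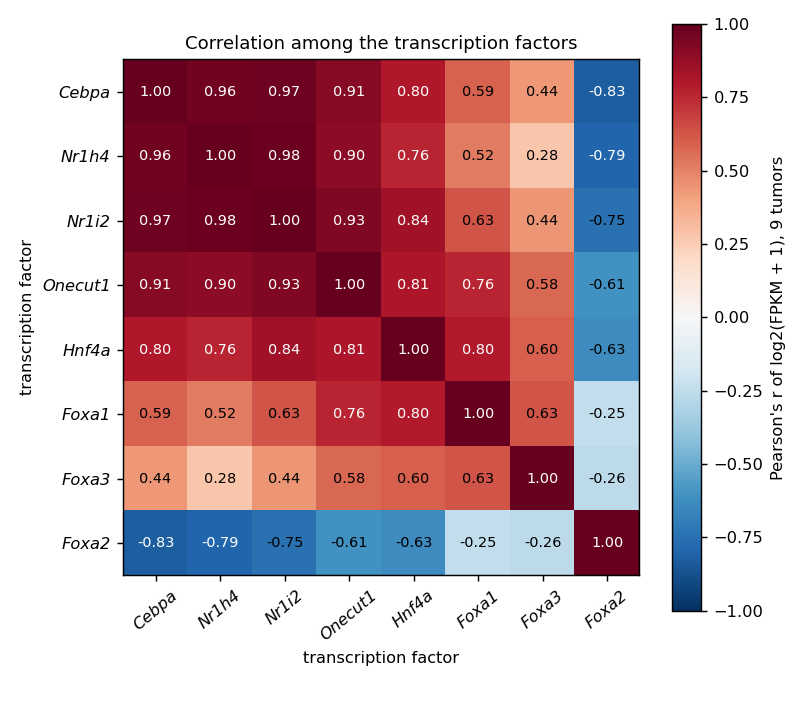
Pearson's r of log2(FPKM + 1) between each pair of 8 factors over the 9 tumors (colour and number; red positive, blue negative). The block of Cebpa, Nr1h4, Nr1i2 and Onecut1 has r of 0.897 or more, and the row of Foxa2 is negative throughout.

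The genes whose pattern over the 9 tumors was most like that of a factor were sought among the 13474 genes that reached an FPKM of 1 in 5 or more tumors. Those closest to Foxa2 included Gm13456 (r = 0.995) and Smad3 (0.994), a signal carrier of TGF-beta. For Nr1h4 the most similar genes were Pnpla7 (0.998), Ass1 (0.998), an enzyme of the urea cycle, and Clec4g (0.996). For Cebpa they were Fpgs with Mir8093 in 1 entry (0.997), Oit3 (0.993) and Dbi (0.992), and for Nr1i2 Iyd (0.995), Sema4g (0.994) and Cyp2d10 (0.993). For Onecut1 they were Mup17 (0.983), a major urinary protein made by hepatocytes, Keg1 (0.983) and Hsd3b5 (0.981). Those closest to Hnf4a included Pxdc1 (0.981) and Hgfac (0.968). Foxa1 was closest to Txndc15 (0.971), Acy3 (0.971) and Epb41l4b (0.970), and Foxa3 to Mul1 (0.955), Atp5k (0.923) and Slc26a10 (0.904).

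Genes known to be driven by the factors were followed in short lists, which share some genes, such as Alb, Ttr, G6pc, Pck1 and Nr0b2. Of 10 HNF4A targets, 9 were higher in responsive than in PBS-treated tumors at an unadjusted limma p under 0.05 (median 2.95), against 8.48% of all genes. Apoa2 was at a mean of 3632 ± 1468 against 650.0 ± 508 FPKM (SD, n = 3, here and for the means that follow), Ttr, the carrier of thyroid hormone and retinol, at 989.9 ± 589 against 143 ± 108, and Apoc3, an inhibitor of triglyceride clearance, at 908 ± 326 against 158 ± 126. In responsive against nonresponsive tumors 3 of the 10 were higher (Apob, F12 and G6pc, median 1.37), against 4.06% of all genes. In nonresponsive against PBS-treated tumors only the coagulation factor gene F7 was (1 of 10, median 1.49), against 1.51% of all genes. These shares of all genes are the background of the other lists too. No gene of any list had an adjusted limma p under 0.05 in any comparison.

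Of 6 FOXA targets, Alb, Ttr, Tat, Igfbp1 and Pck1 were higher in responsive than in PBS-treated tumors (5 of 6, median 2.68, against 8.48% of all genes), Alb and Tat were higher than in nonresponsive tumors (2 of 6, median 1.36, against 4.06%), and 0 of 6 differed between nonresponsive and PBS-treated tumors at an unadjusted limma p under 0.05 (median 1.06). Alb was at a mean of 4004 ± 1278 FPKM in responsive, 1684 ± 912 in nonresponsive and 756 ± 548 in PBS-treated tumors. The remaining FOXA target, the fetal liver gene Afp, was at 20.4, 25.3 and 18.2 in PBS-treated, 0.321, 9.18 and 56.5 in nonresponsive tumors, and 0.646, 53.9 and 4.40 in responsive tumors. Its 3 lowest tumors were the 3 lowest in Foxa2.

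Of 6 CEBPA targets, Alb, G6pc, Pck1, Gys2 and Cps1 were higher in responsive than in PBS-treated tumors (5 of 6, median 2.77, against 8.48% of all genes), and Alb, G6pc and Cps1 were higher than in nonresponsive tumors (3 of 6, median 1.40, against 4.06%). Cps1, the first enzyme of the urea cycle, was at a mean of 59.4 ± 37.8 FPKM in responsive, 20.4 ± 11.1 in nonresponsive and 8.61 ± 6.38 in PBS-treated tumors. Hamp, which encodes the iron hormone hepcidin, was at 1142 ± 896, 584 ± 639.9 and 245 ± 258 in these groups, with an unadjusted limma p of 0.0597 between responsive and PBS-treated tumors. Between nonresponsive and PBS-treated tumors 0 of 6 had an unadjusted limma p under 0.05 (median 1.13).

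Targets of FXR were of 2 kinds, induced and repressed. Of 9 genes that FXR induces 7 were tested, and 6 of them were higher in responsive than in PBS-treated tumors at an unadjusted limma p under 0.05 (median 2.18, against 8.48% of all genes), among them Slc27a5, an enzyme of bile acid conjugation, at a mean of 84.1 ± 31.6 against 16.1 ± 12.7 FPKM, and Apoc2, counted in 1 entry with Apoc4 and Gm44805, at 484 ± 145 against 241 ± 75.5. Baat and Slc27a5 were higher than in nonresponsive tumors (2 of 7, median 1.15, against 4.06%), and Pltp was higher in nonresponsive than in PBS-treated tumors (1 of 7, median 1.29, against 1.51%), at 118 ± 58.2 against 40.8 ± 13.8. Of 3 bile acid genes that FXR represses, Slc10a1, the bile acid importer, was listed at 0 in PBS tumor 2 and nonresponsive tumor 3, and it is left out of the counts. Both others were higher in responsive than in PBS-treated tumors (2 of 2, median 1.94). Cyp7a1, the rate-limiting enzyme of bile acid synthesis, was at 5.71 ± 2.27 FPKM against 1.38 ± 1.34, and Cyp8b1, which sets the balance of bile acids, at 11.6 ± 6.92 against 1.53 ± 0.976. Cyp8b1 was also higher than in nonresponsive tumors (1 of 2, median 1.29). Between nonresponsive and PBS-treated tumors 0 of the 2 had an unadjusted limma p under 0.05 (median 0.65).

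Of 10 targets of PXR and CAR 7 were tested. Cyp2c29, Ugt1a1 and Abcc2 were higher in responsive than in PBS-treated and than in nonresponsive tumors (3 of 7 in each, medians 1.76 and 1.03, against 8.48% and 4.06% of all genes), and Abcb1a was lower than in PBS-treated tumors (1 of 7, against 8.77%), at a mean of 3.06 ± 0.477 against 4.98 ± 0.827 FPKM. Cyp2c29 shares its entry with Cyp2c53-ps, and Ugt1a1 shares its entry with 8 other genes of the Ugt1a locus. Cyp3a11, the classical PXR target, was at 2.75, 44.0 and 78.3 FPKM in PBS-treated, 136, 81.3 and 42.0 in nonresponsive tumors, and 330, 75.7 and 240 in responsive tumors, which overlapped in every comparison. Alas1, the first enzyme of heme synthesis, was at means of 102 ± 36.3, 124 ± 76.7 and 113 ± 35.0 FPKM in responsive, nonresponsive and PBS-treated tumors. Cyp2b10, the classical CAR target, was at most 0.185 in all 9 tumors. Between nonresponsive and PBS-treated tumors 0 of 7 had an unadjusted limma p under 0.05 (median 0.64).

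**Figure D5:**
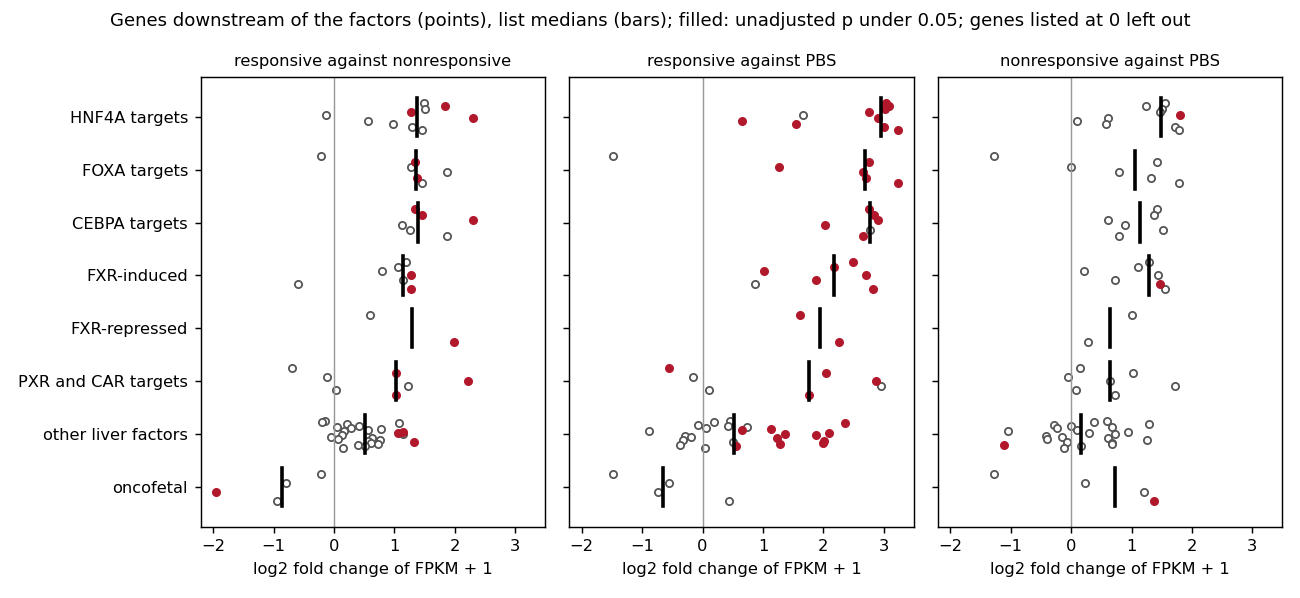
Difference between groups on the log2(FPKM + 1) scale (horizontal axis) for each tested gene (point) of 8 lists, with the median of the list (bar), in the 3 comparisons, without genes listed at 0; filled points have an unadjusted limma p under 0.05. Medians of the 6 target lists lie between 1.76 and 2.95 in responsive against PBS-treated tumors and between 1.03 and 1.40 in responsive against nonresponsive tumors.

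Other transcription factors and cofactors of the liver numbered 29. Nr1h3, in 1 entry with Gm13783, was listed at 0 in 3 tumors (PBS 2, PBS 3 and nonresponsive 2) and is left out of the counts. Of 24 others tested between responsive and PBS-treated tumors, 11 were higher and 0 lower at an unadjusted limma p under 0.05 (median 0.53), against 8.48% and 8.77% of all genes. Rxra, the partner of the nuclear receptors, was at a mean of 40.9 ± 11.9 against 16.7 ± 6.07 FPKM. Cebpb, the most abundant of them, was at 329 ± 117 against 254 ± 118, with groups that overlapped. In responsive against nonresponsive tumors 3 of 25 were higher (Klf15 and Mlxipl among them, median 0.51, against 4.06% of all genes) and 0 lower. In nonresponsive against PBS-treated tumors 0 of 23 were higher, and 1, Tbx3, was lower (median 0.16, against 1.71% of all genes lower), at a mean of 7.18 ± 2.60 against 16.1 ± 1.73 FPKM.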

How the data were processed

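RNA sequencing of 9 tumors was used, 3 in each group, with the groups taken from the sample labels. The authors deposited FPKM values with 95% intervals, which Cufflinks estimated for every gene from transcripts it assembled tumor by tumor along an annotation. The submitters' processing notes name TopHat2 2.1.1, Bowtie2 2.2.4 and the build mm8. Only 3.36% of 32189 gene identifiers started where GENCODE M21 places them on GRCm38, so no coordinates of the files are printed. The authors' comparison table holds group FPKM values, fold changes, p-values and q-values of Cuffdiff, of which only the group FPKM values were read, and only for the transcription factors described. The depth in fragments is not given in the sources used here, and no molecular identifiers were counted. Entries that name no gene held 19.2% to 81.5% of the summed FPKM of a tumor and were left out.

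FPKM was summed over all entries that name a gene. Linear models of limma 3.58.1 (R 4.3.3, eBayes with a trend) were fitted to log2(FPKM + 1) of the 6 tumors in a comparison. Genes that reached an FPKM of 1 in 3 or more of these tumors were tested, and p-values were adjusted over all of them by Benjamini-Hochberg. The limma fit of responsive against nonresponsive tumors was also run on simulated data with planted differences, which covered no other step. Two-sided exact permutation tests and correlations were computed with scipy 1.17.1, numpy 2.4.6 and pandas 2.3.3 under Python 3.11.15. Matplotlib 3.10.9 drew the plots.

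The transcription factors and the gene lists were chosen with earlier results of these data known. The rule for naming genes was the 9 factors, the 3 genes of each list with the highest mean FPKM, any list gene with an adjusted p under 0.05, and the 3 genes most like each factor. Some genes that the rule or the lists would name are not reported here, though they stay in the counts and medians. List genes named for an unadjusted p under 0.05, and Cyp2b10, were chosen after their values were seen, and so were the motifs, with the promoters in view. As alternatives, each tumor was left out in turn, the replicate number was added as a block, genes of a shared entry were joined, all 9 tumors were fitted together, tumors were scaled by their upper quartile, the filter was dropped or set to 5, and the pseudocount was set to 0.1. Correlations within groups, and lists without genes listed at 0, were added after seeing the data.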

Additional observations from a re-analysis of the deposited data

How the results depend on the processing

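Leaving out 1 tumor at a time gave 1 to 6 factors higher at an unadjusted limma p under 0.05 in responsive against nonresponsive tumors (2 with all tumors), 3 to 6 in responsive against PBS-treated tumors (6 with all), and 0 to 1 lower factors in both comparisons with PBS, the 1 being Foxa2. The share of all genes that were higher in responsive tumors ran from 1.53% to 7.17% against nonresponsive tumors over these fits. Against PBS-treated tumors it ran from 4.09% to 9.34%. Foxa2 was lower without responsive tumor 2 and without nonresponsive tumor 3. There 28.6% and 13.8% of all genes had an unadjusted limma p under 0.05 in either direction, and 8.79% and 5.26% were higher. Where a group keeps 2 tumors, its spread is borrowed from the pooled fit. A filter at an FPKM of 5 left 5 factors to test, of which 1 was higher against nonresponsive and 3 against PBS-treated tumors. With that filter 4.05% and 8.42% of all genes were higher in these comparisons. Without a filter, with upper-quartile scaling, with genes of a shared entry joined, and with all 9 tumors in 1 fit, the 8 factors kept their direction and their side of 0.05 in each comparison. With a pseudocount of 0.1 the single call lost was Nr1i2 against PBS (2.39, unadjusted p = 0.0535), and Onecut1 rose from 1.60 to 2.72 there. Directions reversed for Foxa2 in responsive against nonresponsive tumors (-0.79 to 0.94 over the tumors left out, negative without nonresponsive tumor 1 and, at -0.70, without responsive tumor 2) and for Foxa3 in nonresponsive against PBS-treated tumors (-0.63 to 0.15, positive without nonresponsive tumor 2). The correlation of Foxa2 with hepatocyte markers weakened to -0.547 without 2 tumors. Within groups, an alternative chosen after seeing the data, the correlation of Hnf4a fell to 0.373, with an exact permutation p over 0.05. With the replicate number as a block, 4 factors were higher in responsive against nonresponsive tumors, where 5.34% of all genes were. Against PBS-treated tumors 3 factors were higher, and 4.69% of all genes. The deviations of same-numbered tumors had r of -0.422 to 0.517 in the 9 pairings of equal numbers, and not every tumor correlated best with its own number. Deviations from a mean of 3 tumors depend on each other, so these values cannot show whether the numbers pair the mice. Each tumor came from a separate mouse, and the main fits used no block. With 3 tumors a group, Foxa2 had the largest standard errors, and the folds of Foxa1, Nr1i2 and Onecut1, which lie near an FPKM of 1 in some tumors, depend on the pseudocount. The limma p-values set a difference against the spread between mice within the groups, which eBayes moderates over all genes.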

Other observations

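Of 5 genes of the fetal liver and of hepatoma, 4 were tested, and all 4 had a negative difference between responsive and nonresponsive tumors. H19, a fetal noncoding RNA counted in 1 entry with Mir675, was lower in responsive than in nonresponsive tumors (1 of 4 at an unadjusted limma p under 0.05), at a mean of 5.85 against 24.2 FPKM. It was at 17.6, 15.7 and 39.3 in the nonresponsive and 11.0, 3.52 and 3.01 in the responsive tumors, with 2.87 to 19.1 in the PBS-treated ones, against 1.44% of all genes lower at that threshold. The skeletal muscle gene Mylpf was at 16.1, 3.62 and 89.0 in the nonresponsive tumors, at most 2.91 in the responsive ones and at 42.7 in PBS tumor 1, so nonresponsive tumor 3 and PBS tumor 1 were the highest of their groups in both genes. Its part in the difference of H19 was not tested. Igf2, the fetal growth factor gene beside H19, was higher in nonresponsive than in PBS-treated tumors (4.83 against 1.28 FPKM, 1 of 4 at that threshold, against 1.51% of all genes), in 1 entry with Gm49394. Gpc3, a surface marker of hepatocellular carcinoma, was at means of 4.91, 8.13 and 6.62 in responsive, nonresponsive and PBS-treated tumors, with groups that overlapped. Afp spanned 0.321 to 56.5 FPKM over the 9 tumors. Against PBS-treated tumors 0 of the 4 had an unadjusted limma p under 0.05 in responsive tumors.

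Of 6 markers of bile duct cells 5 were tested. All 5 had a positive difference between responsive and nonresponsive tumors (median 0.70), and 1 of them, Epcam, was higher at an unadjusted limma p under 0.05, against 4.06% of all genes (16.0 against 4.32 FPKM, limma unadjusted p = 0.00188, exact permutation p = 0.10). Between responsive and PBS-treated tumors 4 of the 5 had a negative difference (median -0.19), and between nonresponsive and PBS-treated tumors all 5 did (median -0.73), with 0 of 5 at an unadjusted limma p under 0.05 in both. Epcam was at a mean of 7.32 in PBS-treated tumors. Spp1, in 1 entry with Gm42793, was at means of 530, 434 and 602 FPKM in responsive, nonresponsive and PBS-treated tumors, Krt7 at 16.7, 9.92 and 35.3, and Sox9 at 5.54, 3.03 and 5.63. Cftr, the marker not tested, was at most 0.413. Krt19 was at 212, 58.9 and 136 in PBS-treated, 1.47, 69.0 and 194 in nonresponsive tumors, and 5.82, 173 and 51.6 in responsive tumors. The lowest Krt19 values were in nonresponsive tumor 1 and responsive tumor 1, which were also the lowest in Foxa2.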
